A study of Mus musculus with 2 samples.

Results

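The type I interferon system of macrophages was examined through 9 genes: the interferon gene Ifnb1, the receptor genes Ifnar1 and Ifnar2, the interferon regulatory factor (IRF) genes Irf1, Irf3, Irf5, Irf7 and Irf9, and Stat2. They were chosen by symbol, and all 9 were found by mouse Ensembl identifier among the 34745 identifiers of the RNA-seq table. The cells were primary bone marrow-derived macrophages of C57BL/6 mice. One library came from cells transfected with AclyE14-ASO, an antisense oligonucleotide named for Acly, the gene of ATP-citrate lyase, and 1 library from cells transfected with a control oligonucleotide (Control-ASO). Both cultures were also treated with lipopolysaccharide (LPS), the bacterial product that activates macrophages through TLR4, so no untreated state was compared. The labels state neither the dose and time of LPS nor the number of animals behind a culture. With 1 library per group no difference below has a replicate check and no p-value is given. The RNA was bulk, so fewer cells of a type and less RNA per cell cannot be told apart.

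LPS acts on TLR4 and its adaptor TRIF to activate the transcription factor IRF3, which together with NF-kB switches on Ifnb1. Secreted interferon beta binds the receptor made of IFNAR1 and IFNAR2, whose kinases JAK1 and TYK2 phosphorylate STAT proteins, STAT2 among them. Phosphorylated STAT2 joins IRF9 in the complex ISGF3, which binds interferon-stimulated response elements in antiviral genes and in genes of the pathway itself, Irf7, Irf9 and Stat2 among them.

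The response has known DNA elements. The upstream sequences of Ifnb1, Ifnar2, Irf1 and Stat2 are shown because they hold matches to such elements outside any annotated exon. The sequences are from RefSeq on GRCm38.p6, each the 250 bases before the annotated start, 5′ to 3′ on the gene's strand. Capitals mark matches, on either strand, to the IRF half-site AANNGAAA, the interferon-stimulated response element core GAAANNGAAA, the STAT element TTCNNNGAA or the NF-kB decamer. A match to GAAANNGAAA always contains a match to AANNGAAA.
Ifnb1, chr4:88522795-88523044, minus strand: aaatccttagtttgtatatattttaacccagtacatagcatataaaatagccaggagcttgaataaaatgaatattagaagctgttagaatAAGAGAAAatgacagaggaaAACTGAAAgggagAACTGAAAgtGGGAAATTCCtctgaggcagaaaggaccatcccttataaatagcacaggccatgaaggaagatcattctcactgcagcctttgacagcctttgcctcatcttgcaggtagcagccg
Ifnar2, chr16:91372533-91372782, plus strand: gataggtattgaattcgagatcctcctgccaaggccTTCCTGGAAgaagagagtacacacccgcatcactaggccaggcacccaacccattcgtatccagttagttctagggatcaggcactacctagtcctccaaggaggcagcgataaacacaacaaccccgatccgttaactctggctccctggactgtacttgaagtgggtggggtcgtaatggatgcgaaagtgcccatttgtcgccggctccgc
Irf1, chr11:53769764-53770013, plus strand: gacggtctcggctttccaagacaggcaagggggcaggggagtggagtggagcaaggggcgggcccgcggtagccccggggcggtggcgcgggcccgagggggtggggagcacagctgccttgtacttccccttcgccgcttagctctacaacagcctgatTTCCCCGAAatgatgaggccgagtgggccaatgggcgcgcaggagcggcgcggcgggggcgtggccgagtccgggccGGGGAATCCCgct
Stat2, chr10:128270248-128270497, plus strand: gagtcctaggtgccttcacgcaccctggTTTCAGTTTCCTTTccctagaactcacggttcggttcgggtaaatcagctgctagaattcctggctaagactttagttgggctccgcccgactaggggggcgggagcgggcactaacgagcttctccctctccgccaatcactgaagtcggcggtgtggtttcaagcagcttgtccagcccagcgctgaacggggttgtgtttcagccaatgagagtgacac

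The Ifnb1 window held 3 half-sites and 1 NF-kB decamer within 159 to 107 bases before the start. The Ifnar2 window held 1 STAT element, the Irf1 window 1 STAT element and 1 NF-kB decamer, and the Stat2 window 1 response element core with 2 overlapping half-sites. Of the 9 genes, 2 had the half-site in a window, 1 the response element core, 2 the STAT element and 2 the NF-kB decamer. Of all 32851 RefSeq windows, 21.3% held the half-site, 2.98% the response element core, 7.02% the STAT element and 7.25% the NF-kB decamer. In the windows of the other 5 genes the search found 0 matches. Of these, the Irf3 and Irf7 windows overlapped annotated exons by 181 and 57 bases. Both Irf9 windows overlapped annotated Irf9 exons, by 250 and 88 bases, and are not printed. A match describes letters in a window and not binding by a factor.

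The AclyE14-ASO library held 12751076 gene counts and the Control-ASO library 14215397. Acly itself was at 7.35 FPKM (768 counts) in AclyE14-ASO cells, against 13.3 FPKM (1549 counts) in Control-ASO cells. FPKM are fragments scaled to gene length and library total. Size calls used a log2 ratio, FPKM + 1 in AclyE14-ASO cells over FPKM + 1 in Control-ASO cells, which understates the change of low genes, and a limit of 1.5-fold. Of the 8658 genes that averaged 1 FPKM or more over both libraries, called measured here, 15.5% passed that limit, 7.03% as higher and 8.48% as lower, and their median log2 ratio was -0.13. That is 609 higher and 734 lower genes, against 851 higher and 406 lower once the ratios were centred on the median gene. Count ratios are per library total, with exact (Clopper-Pearson) 95% intervals for counting error only, since without molecular identifiers the reads may include copies of 1 molecule. Such an interval did not hold a ratio of 1 for 66% of measured genes, so an interval clear of 1 is common between these libraries.

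All 9 genes were measured, with at least 324 counts in each library and a mean of at least 12.1 FPKM. Of the 9, 8 lay within 1.5-fold, 0 were higher and 1, Irf9, was lower, beside 8.48% of all measured genes. The median log2 ratio of the 9 was -0.13, the same to 2 decimals as that of all measured genes. It was -0.08 without Irf9.

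**Figure D1:**
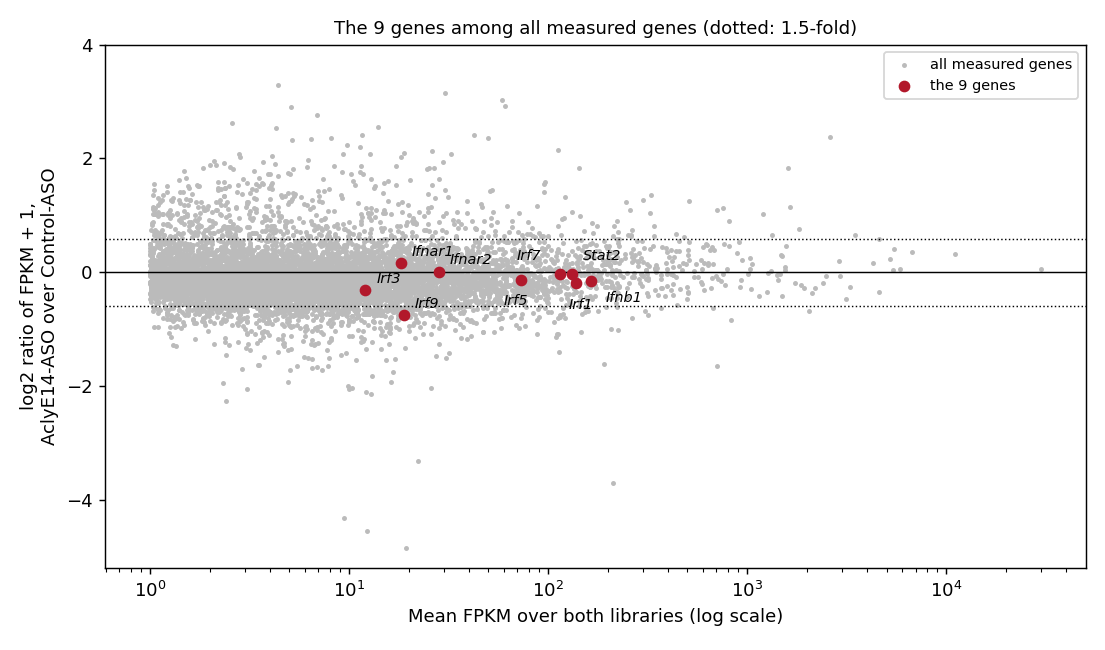
Each grey point is 1 of 8658 measured genes and each red point 1 of the 9 genes, by mean FPKM over both libraries (log scale) and by log2 ratio, AclyE14-ASO over Control-ASO on FPKM + 1, with dotted lines at 1.5-fold. Irf9, at -0.75, lies below the lower line and the other 8 genes lie between -0.31 and 0.17.

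Ifnb1, the gene of interferon beta, was abundant in both libraries. It stood at 155 FPKM (1485 counts) in AclyE14-ASO cells and 172 FPKM (1831 counts) in Control-ASO cells. The count ratio was 0.904, with an interval of 0.844 to 0.969, and 48.1% of measured genes had a lower log2 ratio, so Ifnb1 sat near the middle of all genes. Its level exceeded that of 96.6% of measured genes.

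No other interferon gene came near this level. Of 20 other interferon genes of types I, II and III, 0 reached a mean of 1 FPKM and 14 had no count in either library. Their counts summed to 12 in AclyE14-ASO cells and 2 in Control-ASO cells, a ratio of 6.69 with an interval of 1.49 to 61.5. Ifna5 had 4 counts in AclyE14-ASO cells and 1 count in Control-ASO cells, and was named after its value was seen. The Ifna genes are near copies of each other, so reads may be split among them. A count of 0 in a library allows up to 3 counts.

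The receptor genes differed little. Ifnar1, the chain that binds TYK2, was at 19.2 FPKM (2383 counts) in AclyE14-ASO cells and 17.0 FPKM (2353 counts) in Control-ASO cells. It had the highest log2 ratio of the 9 genes, 0.17. Per library total, its count ratio was 1.13 (interval 1.07 to 1.20). It was the only one of the 9 with such an interval wholly above 1, as was the case for 21.7% of measured genes. Ifnar2, the chain that binds JAK1 and STAT2, was at 28.5 FPKM (2220 counts) in AclyE14-ASO cells and 28.2 FPKM (2453 counts) in Control-ASO cells. Its count ratio was 1.01, with an interval of 0.952 to 1.07, which holds 1. Within a library, Ifnar1 had 1.07 counts per Ifnar2 count in AclyE14-ASO cells and 0.959 in Control-ASO cells. The ratio of these values, which does not depend on library totals, was 1.12 (interval 1.03 to 1.21, normal approximation on the log scale). Gene-level values do not separate the membrane-bound and soluble forms of IFNAR2.

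The IRFs that induce Ifnb1 were close between libraries. Irf3, present before stimulation and activated by phosphorylation, was at 10.7 FPKM (324 counts) in AclyE14-ASO cells and 13.5 FPKM (455 counts) in Control-ASO cells. Its count ratio was 0.794 (0.686 to 0.917), and 28.4% of measured genes had a lower log2 ratio than its -0.31. Irf7, the interferon-induced amplifier of the response, was at 113 FPKM (9280 counts) in AclyE14-ASO cells and 116 FPKM (10576 counts) in Control-ASO cells, a count ratio of 0.978 (0.951 to 1.01). There were 0.0349 Irf3 counts per Irf7 count in AclyE14-ASO cells and 0.0430 in Control-ASO cells, a ratio of 0.812 (0.702 to 0.938).

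Irf1 and Irf5 are factors of inflammatory macrophages, with Irf1 induced by interferon gamma and by NF-kB, and Irf5 acting below TLRs. Irf1 was at 128 FPKM (9448 counts) in AclyE14-ASO cells and 147 FPKM (12081 counts) in Control-ASO cells, with a count ratio of 0.872 (0.849 to 0.896). Irf5 was at 70.1 FPKM (3171 counts) in AclyE14-ASO cells and 76.7 FPKM (3871 counts) in Control-ASO cells, a ratio of 0.913 (0.871 to 0.957). Both were lower beyond counting error per library total, as were 44.2% of measured genes, and neither passed 1.5-fold. After centring on the median gene their log2 ratios were -0.07 for Irf1 and -0.0005 for Irf5. Irf2, a relative of Irf1 that competes for the same sites, was at 58.2 FPKM in AclyE14-ASO cells and 64.9 FPKM in Control-ASO cells. Irf1 had 5.13 counts per Irf2 count in AclyE14-ASO cells and 5.27 in Control-ASO cells, a ratio of 0.973 whose interval of 0.910 to 1.04 holds 1.

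Stat2 and Irf9, which encode partners in ISGF3, differed unequally. Stat2 was at 131 FPKM (7484 counts) in AclyE14-ASO cells and 134 FPKM (8523 counts) in Control-ASO cells, with a count ratio of 0.979 (0.949 to 1.01). Irf9, the DNA-binding subunit, was at 13.9 FPKM (1518 counts) in AclyE14-ASO cells and 24.0 FPKM (2927 counts) in Control-ASO cells. Per library total, its count ratio of 0.578 (0.543 to 0.615) put the whole interval beyond 1.5-fold. That is a level 42.2% lower with an interval of 38.5% to 45.7%. Only 3.93% of measured genes had a lower log2 ratio than its -0.75. After centring on the median gene the Irf9 log2 ratio was -0.62, and the count interval was not recomputed, so it may then reach inside 1.5-fold.

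Counts of Irf9 were also set against those of the other genes within each library, which needs no library total. This comparison was chosen after the values were seen. Irf9 had 0.203 counts per Stat2 count in AclyE14-ASO cells and 0.343 in Control-ASO cells, a ratio of 0.591 (0.551 to 0.633). Against the other members the same ratio of Irf9 lay between 0.512, per Ifnar1 count, and 0.728, per Irf3 count. Each of the 8 intervals was wholly below 1. Per library total Irf9 had the lowest count ratio of the members, 0.578, and Irf3 the next lowest, 0.794. All 8 ratios therefore had to fall below 1. They share the same Irf9 counts, so they are not separate tests of the Irf9 difference.

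Irf9 (ENSMUSG00000002325, chromosome 14, 55603571 to 55610030, plus strand, GRCm38) begins inside the last part of Rnf31, a subunit of the linear ubiquitin ligase complex, on the same strand. Their merged exons share 123 bases, 2.28% of the Irf9 exon bases. Rnf31 was at 121 CPM (counts scaled to the library total) in AclyE14-ASO cells and 117 CPM in Control-ASO cells, a count ratio of 1.03 (0.959 to 1.10). Irf9 was at 119 CPM in AclyE14-ASO cells and 206 CPM in Control-ASO cells. The difference, AclyE14-ASO minus Control-ASO, was thus -86.9 CPM for Irf9 and 3.29 CPM for Rnf31. The summed counts of both genes, 3057 in AclyE14-ASO cells and 4596 in Control-ASO cells, had a ratio of 0.742 (0.708 to 0.776), within 1.5-fold.

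The overlaps of 5 other members were checked in the same way. Ifnar2 shares 315 exon bases on its own strand with Gm21970, an annotated gene that spans Ifnar2 and Il10rb, which had 197 counts in AclyE14-ASO cells and 276 in Control-ASO cells. Irf5 shares 411 bases, 14.1% of its exon bases, with Tnpo3 on the opposite strand, which had 643 counts in AclyE14-ASO cells and 1035 in Control-ASO cells. Phrf1, opposite Irf7, had 334 counts in AclyE14-ASO cells and 522 in Control-ASO cells, and Bcl2l12, opposite Irf3, had 12 counts in AclyE14-ASO cells and 16 in Control-ASO cells. Gm17334, opposite Irf1, had no count. No label states whether counting used the strand, and reads of genes on opposite strands cannot be told apart without it. The sums lay within 1.5-fold for all 5, from 0.795 for Irf3 with Bcl2l12 to 0.987 for Ifnar2 with Gm21970. Ifnb1, Ifnar1 and Stat2 had no gene with overlapping exons.

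**Figure D2:**
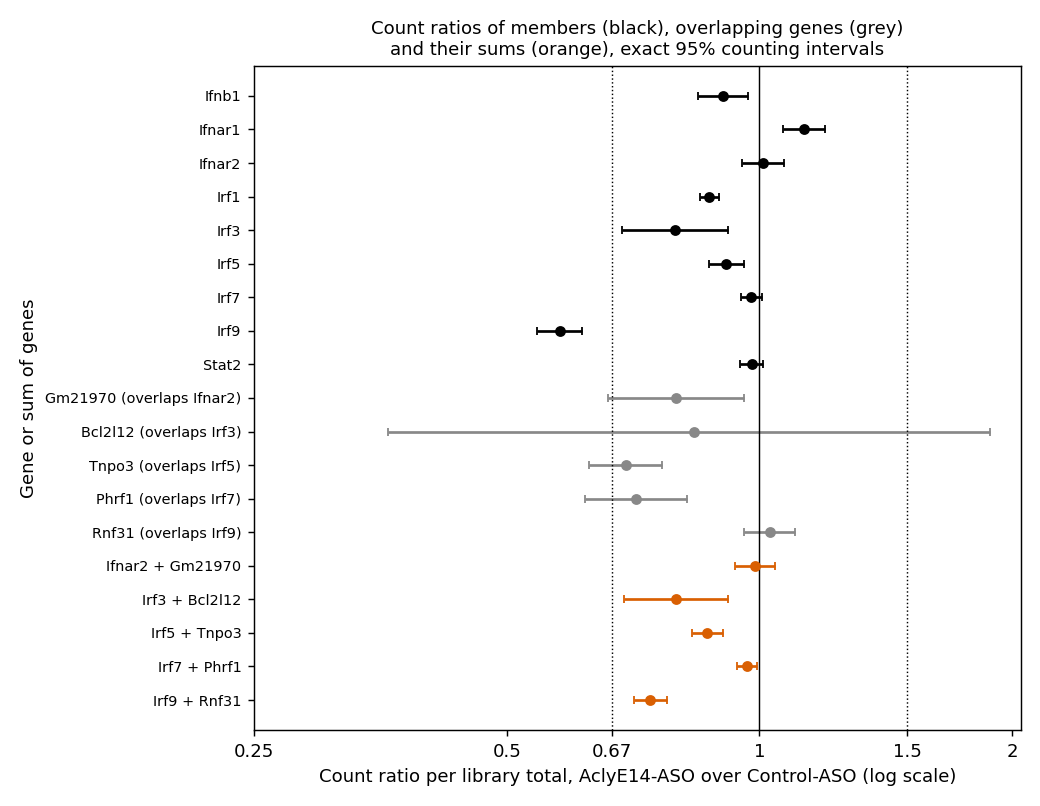
Points are count ratios per library total, AclyE14-ASO over Control-ASO (log scale), with exact 95% counting intervals, for the 9 genes (black), the genes whose exons overlap theirs (grey) and the sums of each pair (orange), with dotted lines at 1.5-fold. Irf9 at 0.578 is the only 1 of the 9 beyond the lower line, while Rnf31 lies at 1.03 and their sum at 0.742.

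The order of levels depended on the gene length behind the FPKM. By the deposited FPKM, Ifnb1 was highest in both libraries, followed by Stat2, Irf1 and Irf7 in AclyE14-ASO cells and by Irf1, Stat2 and Irf7 in Control-ASO cells, and Irf3 was lowest in both. Only Stat2 and Irf1 in AclyE14-ASO cells had overlapping exact 95% Poisson intervals among neighbours in these orders. The length that turns counts into the deposited FPKM was 8582 nt for Irf9, longer than the 6460 nt that the gene spans in the genome, and 750 nt for Ifnb1, equal to its single exon. Over 8789 genes with more than 50 counts in each library, 67.7% had a length within 1% of the summed lengths of all distinct annotated exons, in which bases shared by several exon forms count more than once. For such genes, each further exon form lowers the FPKM that a given count yields.

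With merged exon lengths, an alternative chosen after seeing the data, Irf9 was at 22.1 FPKM in AclyE14-ASO cells and 38.2 FPKM in Control-ASO cells. Irf7 then led in AclyE14-ASO cells, at 193 FPKM against 186 FPKM for Irf1, with overlapping intervals. Irf1 led in Control-ASO cells, at 214 FPKM against 197 FPKM for Irf7, with Ifnb1 the third in both libraries. Stat2 was at 99.0 FPKM in AclyE14-ASO cells and 101 FPKM in Control-ASO cells on that scale. Irf9 lay below Ifnar1 in AclyE14-ASO cells and above it in Control-ASO cells under either length. Since a length is the same in both libraries, count ratios do not depend on it.

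**Figure D3:**
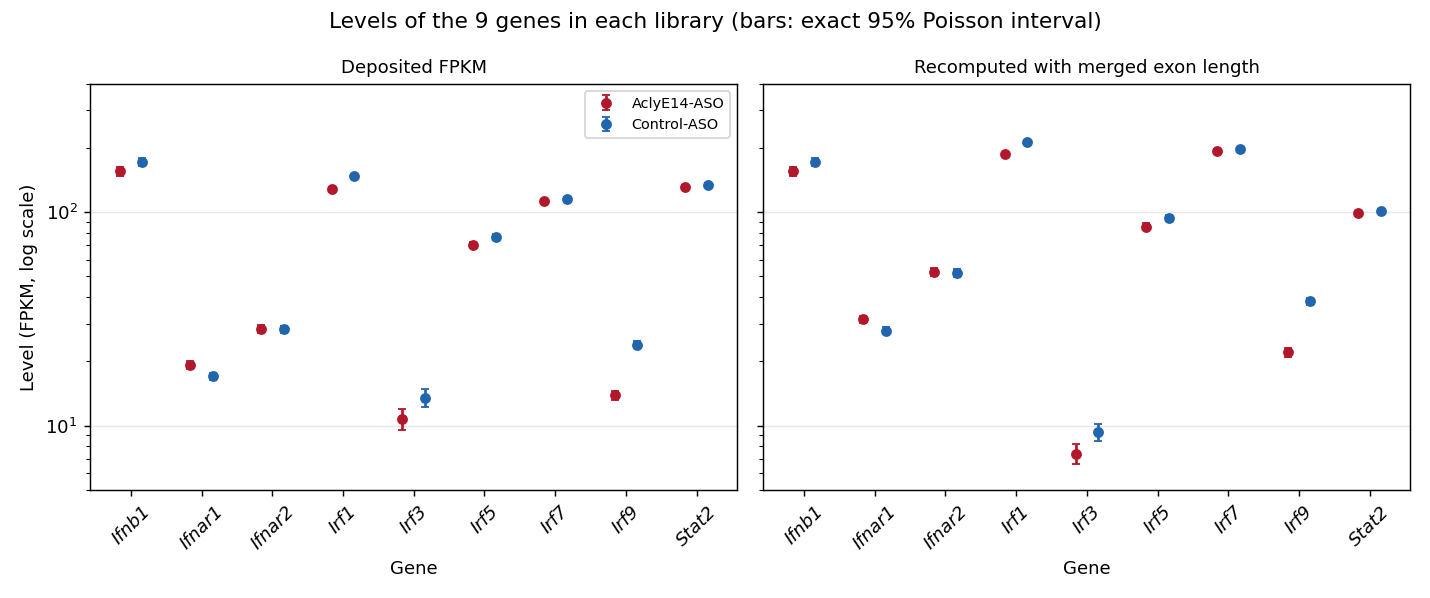
Points are the FPKM of each of the 9 genes (log scale) in AclyE14-ASO cells (red, left of each pair) and Control-ASO cells (blue), with exact 95% Poisson intervals, by the deposited values and with merged exon lengths. Irf9 shows the widest gap between libraries in both panels, and Irf7 stands above Ifnb1 in the merged-exon panel but below it in the deposited one.

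Around the 9 genes, 100 measured genes of the pathway lists gave 6 higher and 7 lower genes at 1.5-fold, 13% of them, beside 15.5% of all measured genes. After centring on the median gene these were 8 higher and 5 lower. Upstream, in the arm from TLR4 to TBK1, 1 of 14 measured genes was higher and 2 were lower, with a median log2 ratio of -0.12. The LPS co-receptor gene Cd14 was at 2270 FPKM in AclyE14-ASO cells and 1020 FPKM in Control-ASO cells, a count ratio of 2.23 (2.19 to 2.26). Tlr4 was at 0.835 FPKM (72 counts) in AclyE14-ASO cells and 4.96 FPKM (477 counts) in Control-ASO cells. It reached the mean of 1 FPKM only through Control-ASO cells. Ticam2, the adaptor that links TLR4 to TRIF, was at 6.26 FPKM in AclyE14-ASO cells and 12.3 FPKM in Control-ASO cells. Of 7 measured partners of IRF3 at the Ifnb1 enhancer 0 passed the limit, with Rela, the most abundant, at 81.7 FPKM in AclyE14-ASO cells and 82.6 FPKM in Control-ASO cells. Of 7 measured cytosolic sensors and adaptors 0 passed either, with Trim25, the most abundant by the mean deposited FPKM, at 117 FPKM in AclyE14-ASO cells and 89.4 FPKM in Control-ASO cells.

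At the receptor, 0 of 7 measured kinases and class II cytokine receptors passed 1.5-fold, beside 15.5% of all measured genes. Jak2, the most abundant, was at 62.8 FPKM in AclyE14-ASO cells and 54.7 FPKM in Control-ASO cells. Among 6 measured other IRFs and IRF2-binding proteins only Irf2bp2, a co-repressor, was higher, with 115 counts in AclyE14-ASO cells and 58 in Control-ASO cells. That is 1.78 FPKM in AclyE14-ASO cells and 0.803 FPKM in Control-ASO cells. Irf2bp2 thus reached the mean of 1 FPKM only through AclyE14-ASO cells. Irf2 was the most abundant of the 6. Among 4 measured other STATs Stat5a was higher, at 23.1 FPKM in AclyE14-ASO cells and 12.8 FPKM in Control-ASO cells. Stat3, named after its value was seen, was at 18.6 FPKM in AclyE14-ASO cells and 12.1 FPKM in Control-ASO cells, just inside the limit on FPKM + 1 and just past it by counts (ratio 1.54, 1.47 to 1.62). The annotated ends of Stat3 and Stat5a overlap on opposite strands, only from 100885098 to 100885169 on chromosome 11. Any effect of this overlap on their values was not tested. Stat6, the most abundant by the mean of both libraries, was at 19.5 FPKM in AclyE14-ASO cells and 25.2 FPKM in Control-ASO cells.

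Of 12 measured genes that restrain receptor signalling 1 was higher and 3 were lower, beside 15.5% of all measured genes past the limit. Socs3, which acts mainly on receptors of the IL-6 family, was at 214 FPKM in AclyE14-ASO cells and 116 FPKM in Control-ASO cells. Socs1, which acts on interferon receptors, was at 22.2 FPKM (345 counts) in AclyE14-ASO cells and 50.5 FPKM (876 counts) in Control-ASO cells, a count ratio of 0.439 (0.387 to 0.498). Pias4 and the ubiquitin ligase gene Cblb had count ratios of 0.597 and 0.615. Usp18, the most abundant and an inhibitor at IFNAR2, was at 262 FPKM in AclyE14-ASO cells and 278 FPKM in Control-ASO cells.

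Of 30 measured ISGF3 target genes 1 was higher and 2 were lower, with a median of -0.11, beside 15.5% of all measured genes past the limit and their median of -0.13. Rsad2, the viperin gene, was at 2273 FPKM in AclyE14-ASO cells and 1345 FPKM in Control-ASO cells. Ifi44 was at 9.16 FPKM in AclyE14-ASO cells and 15.9 FPKM in Control-ASO cells. Ifit1bl1, a relative of Ifit1 whose reads may be shared with it, was at 14.1 FPKM in AclyE14-ASO cells and 40.7 FPKM in Control-ASO cells. Isg15, the most abundant, was at 4529 FPKM in AclyE14-ASO cells and 4059 FPKM in Control-ASO cells. Of 13 measured genes tied to IRF1 only Il12b passed, as higher, at 10.4 FPKM in AclyE14-ASO cells and 3.76 FPKM in Control-ASO cells, with a list median of 0.07 and the most abundant, Cd274, at 703 FPKM in AclyE14-ASO cells and 639 FPKM in Control-ASO cells.

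**Figure D4:**
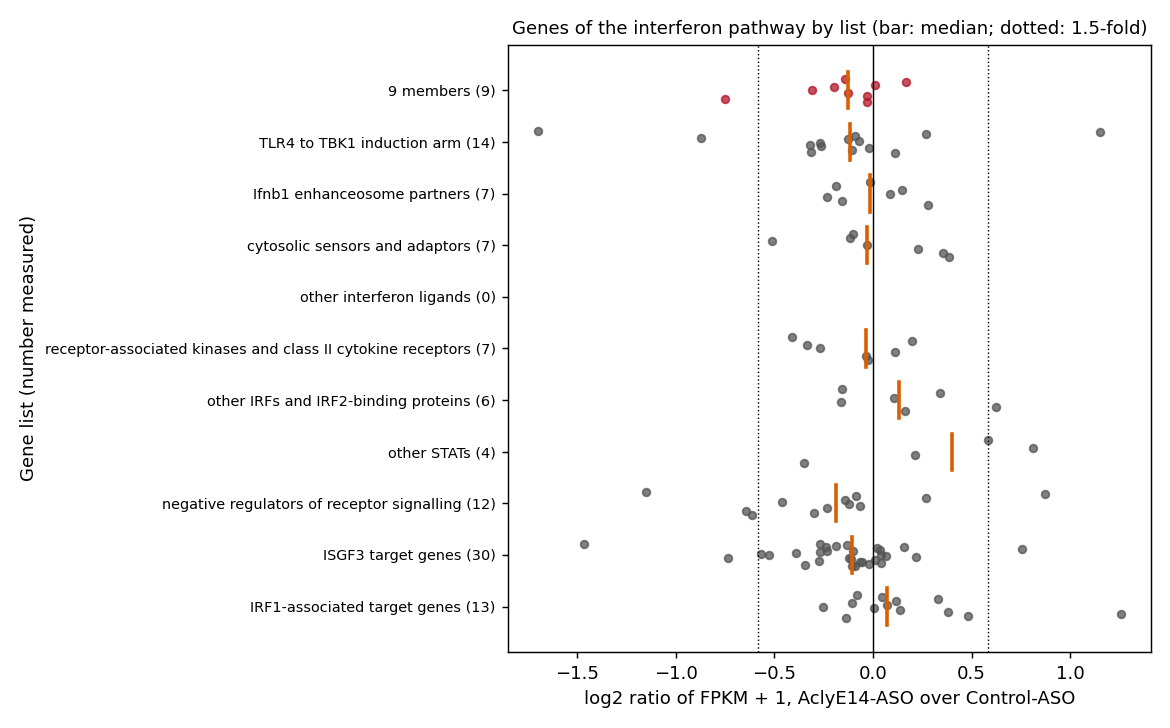
Points are log2 ratios, AclyE14-ASO over Control-ASO on FPKM + 1, of measured genes in each list, with an orange bar at the list median and dotted lines at 1.5-fold. The 9 genes, in red, have a median of -0.13, and of 30 ISGF3 targets 27 lie between the dotted lines.

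Macrophage markers were present in both libraries, with a summed level over 10 genes of 15503 FPKM in AclyE14-ASO cells and 12253 FPKM in Control-ASO cells. Lyz2 and Cd14 carried most of both sums, and the other 8 summed to 957 FPKM in AclyE14-ASO cells and 1435 FPKM in Control-ASO cells. Of the 10, 3 were higher and 2 lower by 1.5-fold, beside 7.03% and 8.48% of all measured genes, with a median log2 ratio of -0.08. Fibroblast and stromal markers moved with the AclyE14-ASO library. All 8 measured of 12 were higher, beside 7.03% of all measured genes. The filter favours this outcome, since Pdgfra and Thy1 reached the mean of 1 FPKM only through AclyE14-ASO cells. Pdgfra was at 2.22 FPKM in AclyE14-ASO cells and 0.338 FPKM in Control-ASO cells, and Thy1 at 3.44 FPKM and 0.243 FPKM. Lum, with 6 counts in each library, was not measured. The list summed to 216 FPKM in AclyE14-ASO cells and 49.3 FPKM in Control-ASO cells, with none at 0 in both. Of 10 neutrophil markers 2 were measured, with a list sum of 48.1 FPKM in AclyE14-ASO cells and 24.0 FPKM in Control-ASO cells, and S100a9, Ly6g, Elane and Camp at 0. Of 10 lymphocyte markers 0 were measured, with a list sum of 0.349 FPKM in AclyE14-ASO cells and 0.540 FPKM in Control-ASO cells. Of 6 plasmacytoid dendritic cell markers, cells known for high interferon output, 2 were measured, Bst2 and Tcf4, with Siglech and Klk1 at 0. That list summed to 684 FPKM in AclyE14-ASO cells and 744 FPKM in Control-ASO cells, nearly all of it from the interferon-induced Bst2. The part of these markers in the level of Irf9 or any other gene was not tested.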

How the data were processed

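The deposited table holds raw counts and FPKM per gene for 2 libraries, per the file headers, with 1 column of each per library. HISAT2, StringTie 1.3.0, edgeR and mm10 are named in the submitters' processing notes, without roles. Neither labels nor file header state the counting tool, its strand setting or its annotation. The length behind each FPKM value was recovered from the deposited counts, FPKM and library totals.

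Identifiers were matched to GENCODE M21 (GRCm38) for names, exons and overlaps (34344 of 34745). The 401 without a symbol held 0.123% of AclyE14-ASO and 0.164% of Control-ASO counts and stayed in the totals. Size calls used log2 ratios after adding 1 to the FPKM, over genes averaging 1 FPKM or more, at a limit of 1.5-fold. Members and lists were chosen with earlier results of these data known. The genes named are the members, Acly, genes overlapping a member, and, per list, up to 2 genes at each end past the limit and the most abundant one. Other genes named after their values were seen are marked so, Cblb among them, except genes named as references or as marker genes. One gene of a pathway list is not reported here. No gene is named for a pattern like a member's, since 2 libraries give 1 ratio per gene. Mb21d1, listed among the sensors, was not matched by that symbol and is not analysed here. Alternatives used TMM factors (edgeR 4.0.16) and size factors (DESeq2 1.42.0) in R 4.3.3. Everything else was computed in Python 3.11.15 with SciPy 1.17.1, pandas 2.3.3 and NumPy 2.4.6. The calculations were tested on simulated data. Counting intervals are given for the members and for some other genes.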

Additional observations from a re-analysis of the deposited data

How the results depend on the processing

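The call of Irf9 as lower, and of no other member, was the same with pseudocounts of 0.1 and 5, centring, TMM factors, DESeq2 size factors, CPM without a pseudocount, no filter, a mean of at least 5 FPKM and merged exon lengths. The 2 filter settings could not change a member call, since all 9 genes averaged at least 12.1 FPKM. Merged exon lengths act on a log2 ratio only through the added 1 FPKM. The Irf9 log2 ratio ranged from -0.79 to -0.62 over these settings. At a limit of 2-fold 0 members were called, but the share of all measured genes past that limit was not computed. Summing Irf9 with Rnf31 gave a count ratio of 0.742, within 1.5-fold, by construction, since the Rnf31 reads, at a ratio of 1.03, are added. Centring shifts every log2 ratio by 0.13, and under centring, TMM or DESeq2 factors Irf7 and Stat2 turn slightly positive, so that 4 members rather than 2 lie above 0. The highest log2 ratios were then 0.10 for both. Ifnb1 and Irf5 stood at -0.02 and -0.0005 after centring. Count intervals were computed per library total only. With centring or other factors, whether an interval holds 1 or lies wholly beyond 1.5-fold can change. Among the members this concerns, with others, Ifnar2, Irf7 and Stat2 for a ratio of 1 and Irf9 for the limit of 1.5-fold. TMM gave 751 higher and 506 lower genes over all measured genes, and DESeq2 factors 754 and 503. With a pseudocount of 5 only 6.29% of measured genes passed 1.5-fold, and with CPM 23.8% did. With merged exon lengths 6 of 8 neighbouring pairs in the Control-ASO order kept their order. No paired analysis was possible because each group has 1 library, and for the same reason no library could be left out. Culture-to-culture variation was not measured.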
